A study of Mus musculus with 6 samples.

Results

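The unfolded protein response and its ATF4 branch were followed through 34 genes, all of which were found by symbol among the 52550 genes of the deposited files. They were grouped into the IRE1/XBP1 arm (11 genes), the ATF6 arm with the folding machinery of the endoplasmic reticulum (13 genes) and the PERK/ATF4 arm (10 genes). Many of the targets answer to more than 1 arm, so the grouping orders the text and is not a measurement. The cells were plasmacytoid dendritic cells from the spleen of C57BL/6 mice, stimulated for 12 hours with R837 (imiquimod, an agonist of the endosomal receptor TLR7). Of the 6 libraries, 3 had R837 only and 3 had R837 with added taurine, a sulfur-containing amino acid derivative. The labels used here state neither age, sex nor number of mice, cells without R837 were not analysed here, and all values are therefore from stimulated cells. Whether replicates stem from different mice or cultures is not stated, and p-values then measure only the spread between these libraries, which may be technical.

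The endoplasmic reticulum folds secreted and membrane proteins, and 3 membrane sensors watch over it. IRE1 (Ern1) splices the messenger of Xbp1, which yields an active transcription factor for chaperones and for the degradation of misfolded proteins. ATF6 is cut in the Golgi and releases a factor for chaperone genes. PERK (Eif2ak3) phosphorylates the translation factor eIF2alpha, which slows protein synthesis while favouring translation of ATF4. The kinase GCN2 (Eif2ak4) feeds into the same step when amino acids are short. Dendritic cells are known for high activity of the IRE1 and XBP1 branch, and plasmacytoid dendritic cells secrete large amounts of interferon. Splicing of Xbp1, cleavage of ATF6 and phosphorylation of PERK or eIF2alpha cannot be read from counts per gene, so the values below are messenger levels alone.

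Recovered reads on genes ran from 33585080 to 38392654 per library. Summed markers of plasmacytoid dendritic cells (15 genes, Siglech, Bst2 and Tcf4 among them) had a normalized count of 391988 to 428419 per library, with overlapping groups. The largest parts of that sum were Irf8 and Ly6d. Both were higher in every taurine library than in any R837 library, but neither passed an adjusted p of 0.05 in limma. Groups did not overlap for 5 markers that were higher and 5 that were lower, against 14.6% and 15.0% of all genes tested. Single markers did pass that threshold, with Bst2 and Cox6a2 higher and Tcf4, Runx2, Klk1 and Pacsin1 lower. These are 2 and 4 of the 15, against 3.75% and 2.66% of all genes tested. The same shares stand beside the marker counts below. Summed T cell markers (8 genes) ran from 82878 to 89919.6 with R837 and from 71955 to 77209 with taurine, so the groups did not overlap. Nearly all of that sum was Cd8a, which plasmacytoid dendritic cells of the mouse spleen can also carry and which was lower with taurine (85303 and 72853, limma adjusted p = 0.0474), the only one of 3 tested to pass. The defining T cell genes Cd3d and Cd3g were at 0 in every library, and Cd3e, Trac and Trbc2 averaged 7.01 or less in both groups. Plasma cells carry a strong unfolded protein response, so their markers were read beside these genes. Summed plasma cell markers (11 genes) stood at 12866, 12476 and 11205 with R837 and at 10774, 10107 and 10322 with taurine, so the groups did not overlap. Most of that sum was Tnfrsf13b, which did not pass (5388 and 4892), and Ighg2c (3814 and 2798). Among the 9 tested, 3 had a change above 0 and 6 below it, and Prdm1 averaged 861 and 867. Of the 9 tested, 1 was lower (Ighg2c) and 0 were higher, the defining marker Tnfrsf17 was at 0 in every library, and Jchain averaged 54.1 and 59.0. Summed neutrophil and erythroid markers (11 genes) were higher, at 1018 to 1587 with R837 and 1707 to 1815 with taurine, and of the 9 tested Ngp and Hba-a1 passed. Summed monocyte and macrophage markers (9 genes, all tested) overlapped, at 22838 to 23954 and 23851 to 29112. Of these 7 had a change above 0 and 1 passed, Fcgr1, which was higher (994 and 1817, log2 change 0.86, limma adjusted p = 0.00977). Summed B cell markers overlapped as well, and of the 9 tested 0 passed in limma and 1 had an unadjusted p under 0.05, Fcer2a, at 135 and 46.5 (log2 change -1.68, limma adjusted p = 0.0653). The part of all these markers in the changes below was not tested. In bulk libraries, fewer cells of a type and less RNA per cell cannot be told apart.

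All 34 genes passed the filter on low values (10 or more normalized counts in 3 or more libraries). With taurine, 2 passed as higher and 3 as lower (limma, p adjusted over all 15265 genes tested, threshold 0.05). Among all genes tested 6.41% passed, 3.75% as higher and 2.66% as lower. The higher genes were Syvn1 and Ddit3, and the lower genes were Hyou1, Ern1 and Herpud1. The median log2 change of the 34 was -0.01, and it was also -0.01 over all genes tested. Single values ran from -0.52 (Hyou1) to 0.48 (Ddit3). Groups did not overlap for 18 of the 34, with 7 higher and 11 lower, against 29.6% of all genes tested (14.6% higher and 15.0% lower). The median level with R837 was 7012 for the 34 genes and 440 for all genes tested. The part of this abundance in the separation was not tested. The number past the threshold moved with single libraries. Leaving out R837 replicate 1, 2 or 3 gave 2, 1 and 12 genes, and leaving out taurine replicate 1, 2 or 3 gave 2, 1 and 1. Without R837 replicate 3 the 12 comprised the same 5 genes together with Atf4, Atf6, Dnajc3, Eif2ak3, Hspa5, Pdia4 and Ppp1r15b, all 7 of them lower.

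**Figure D1:**
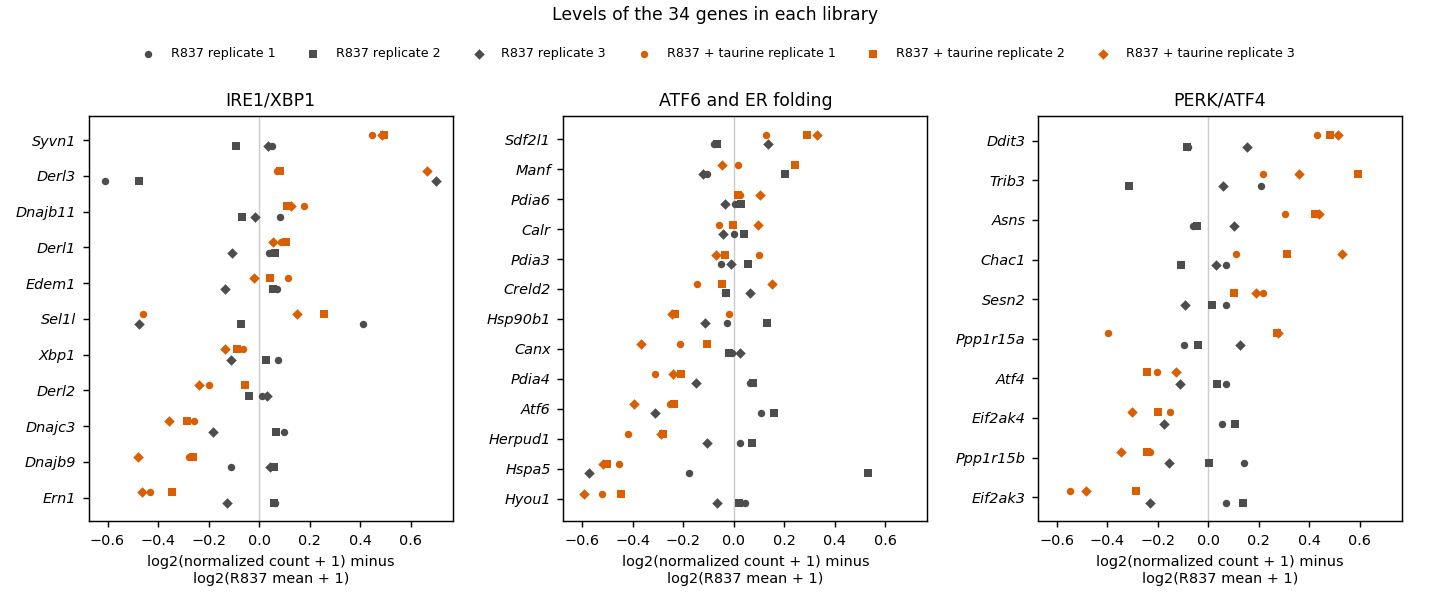
Each point is 1 library, with grey for R837 and orange for R837 plus taurine. The horizontal axis is log2(normalized count + 1) minus log2(mean of the R837 libraries + 1), and genes are sorted by change within each arm. Orange points lie right of all grey points for Syvn1 and Ddit3 and left of them for Ern1, Hyou1 and Herpud1, and the R837 replicate 2 value of Hspa5 stands far to the right of all others for that gene.

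Levels per kilobase of annotated exon spanned a wide range among the 34 genes. The lectin chaperone Calr (calreticulin) was highest, with 20645 normalized counts per kilobase with R837 and 20814 with taurine. It was followed by Pdia3 (12241 and 12244), a disulfide isomerase that works with calreticulin, Hsp90b1 (11091 and 9919), the HSP90 of the endoplasmic reticulum, and Hspa5 (10964 and 7799), the HSP70 there, also called BiP. Atf4 and Xbp1, the transcription factors, stood at 7252 and 6488 per kilobase with R837, while the sensors were lower, at 1594 for Atf6, 598 for Ern1, 377 for Eif2ak3 and 62.0 for Eif2ak4. Derl3 was the lowest at 28.4. Chop (Ddit3), Trib3, Asns and Chac1, whose transcription ATF4 drives, lay between 125 and 407 per kilobase with R837.

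What these genes share in sequence was examined in their promoters, since the response is defined by short elements there. RefSeq windows (GRCm38.p6) from 250 bases before to 50 bases after a transcription start were found for 29 of the 34 genes, as 31 windows among 32851 in all. The windows do not include Atf6, Derl1, Hyou1, Manf and Ppp1r15b. Both strands were searched for the ER stress response element ERSE (CCAAT and CCACG with 9 bases of any kind between them), to which NF-Y and ATF6 or XBP1 bind, for ERSE-II (ATTGG, any base, then CCACG), for the core of the XBP1 element UPRE (TGACGTGG) for the C/EBP-ATF element bound by ATF4 (TGATGNAA), for the cyclic AMP element CRE (TGACGTCA), and for CCAAT and CCACG alone, which overlap ERSE by construction. This set of motifs was chosen after the values were seen. ERSE was present in windows of 9 of the 29 genes and in 0.119% of all windows. ERSE-II was present for 2 genes (0.0365% of all windows), the C/EBP-ATF element for 4 (3.97%) the UPRE core for 0 (0.676%) and CRE for 1, Ppp1r15a (1.79%). CCAAT alone was in windows of 23 genes (37.4% of all windows) and CCACG alone also of 23 (32.8%). No gene held both ERSE and ERSE-II. The ERSE matches are shown because few other windows hold one, although most of the 29 genes lack it as well. The 34 genes were picked as genes of this response, so more such matches among them is not a result of these data. Each reads 5′ to 3′ in the direction of the element, with the fixed bases in capitals and the spacer in lower case, and Hsp90b1 has a pair of them.
Hspa5: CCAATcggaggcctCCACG
Hsp90b1, far: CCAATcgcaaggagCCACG
Hsp90b1, near: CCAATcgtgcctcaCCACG
Calr: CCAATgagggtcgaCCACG
Canx: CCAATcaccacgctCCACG
Pdia6: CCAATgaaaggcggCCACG
Creld2: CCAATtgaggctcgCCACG
Dnajc3: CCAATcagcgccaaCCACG
Derl3: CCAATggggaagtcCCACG
Syvn1: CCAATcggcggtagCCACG

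Among the 9 genes with ERSE, 1 was higher with taurine (Syvn1) and 0 were lower, where 3.75% and 2.66% of all genes tested were. Their changes ran from -0.42 (Hspa5) to 0.48, with the median at -0.01. The match began 65 bases before the start in Hspa5 and 44 bases before it in Syvn1. Herpud1, which fell, had no ERSE but an ERSE-II match 52 bases before its start and a C/EBP-ATF match 112 bases before it. The other C/EBP-ATF matches were in Asns, Chac1 and Trib3, with changes of 0.39, 0.32 and 0.41, none past the threshold. The window of Ddit3 held none of ERSE, ERSE-II, the UPRE core or the C/EBP-ATF element. A match is a description of these letters and not a measured binding site. The windows of genes that moved in opposite directions (Syvn1 and Herpud1), of the main chaperone (Hspa5) and of an ATF4 target (Asns) are printed here on the gene's strand, 5′ to 3′, with the fixed bases of those 4 elements in capitals.
Syvn1 (chr19:6046326-6046625, plus strand): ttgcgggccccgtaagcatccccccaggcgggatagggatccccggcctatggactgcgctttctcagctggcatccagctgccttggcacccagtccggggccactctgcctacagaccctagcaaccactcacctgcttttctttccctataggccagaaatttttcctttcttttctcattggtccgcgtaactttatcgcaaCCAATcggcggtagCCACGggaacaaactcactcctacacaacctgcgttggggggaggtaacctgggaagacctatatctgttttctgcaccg
Herpud1 (chr8:94386179-94386478, plus strand): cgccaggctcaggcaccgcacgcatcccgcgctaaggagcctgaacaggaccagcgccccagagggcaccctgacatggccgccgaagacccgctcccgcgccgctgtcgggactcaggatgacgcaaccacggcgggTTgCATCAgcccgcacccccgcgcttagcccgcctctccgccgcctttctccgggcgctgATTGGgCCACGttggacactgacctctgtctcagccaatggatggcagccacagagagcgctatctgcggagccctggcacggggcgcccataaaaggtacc
Hspa5 (chr2:34771840-34772139, plus strand): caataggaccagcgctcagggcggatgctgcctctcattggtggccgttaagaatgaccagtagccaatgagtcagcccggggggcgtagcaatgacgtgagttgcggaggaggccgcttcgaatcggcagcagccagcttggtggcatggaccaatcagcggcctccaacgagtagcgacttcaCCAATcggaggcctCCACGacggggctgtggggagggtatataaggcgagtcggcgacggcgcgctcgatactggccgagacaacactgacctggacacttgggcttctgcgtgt
Asns (chr6:7693160-7693459, minus strand): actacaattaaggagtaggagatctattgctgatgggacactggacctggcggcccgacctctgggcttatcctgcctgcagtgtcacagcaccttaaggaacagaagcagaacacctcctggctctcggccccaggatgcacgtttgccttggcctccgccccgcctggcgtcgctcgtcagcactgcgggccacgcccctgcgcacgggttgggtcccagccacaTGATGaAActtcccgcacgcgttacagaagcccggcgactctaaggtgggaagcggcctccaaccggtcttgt

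In the IRE1/XBP1 arm the sensor fell, the ubiquitin ligase of the degradation machinery rose, and Xbp1 itself did not pass the threshold. Of 11 genes 1 was higher and 1 lower, where 3.75% and 2.66% of all genes tested were. The median log2 change of the arm was 0.03. Ern1 (ENSMUSG00000020715.9, mm10 chromosome 11, 106394650 to 106487852, minus strand) encodes the IRE1 sensor. Its normalized counts were 5096, 5081 and 4475 in R837 replicates 1 to 3 and 3615, 3843 and 3544 in taurine replicates 1 to 3. All taurine libraries lay below all R837 libraries, and the means of 4884 ± 354 and 3667 ± 156 (SD, n = 3 each) gave a log2 change of -0.41 ± 0.08 (SE, limma adjusted p = 0.0248). Its call was kept in 1 of the 6 fits with a library left out, the one without R837 replicate 3, while the change stayed between -0.47 and -0.38. Xbp1 had 22218, 21487 and 19514 with R837 and 20136, 19817 and 19205 with taurine. The groups overlapped, and the log2 change was -0.09 ± 0.07 (limma adjusted p = 0.432).

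Syvn1 (ENSMUSG00000024807.17, mm10 chromosome 19, 6046576 to 6053712, plus strand) encodes HRD1, the ubiquitin ligase that marks misfolded proteins of the endoplasmic reticulum for the proteasome. It had 3708, 3354 and 3667 with R837 and 4872, 5031 and 5013 with taurine. Every taurine library was above every R837 library, with means of 3576 ± 194 and 4972 ± 86.9 (SD, n = 3 each). The log2 change was 0.48 ± 0.07 (SE, limma adjusted p = 0.0121), and 3 of the 6 fits with a library left out kept the call. Its exons overlap Mrpl49, which averaged 495 and 491, and with those reads added, a sum chosen after the values were seen, the change was 0.42. Sel1l, the scaffold that holds HRD1, had 15259.9, 10927 and 8269.7 with R837 and 8352, 13703 and 12743 with taurine. Libraries of each group were far apart, and the standard error was exceeded only by that of Derl3 (0.40) among the 34 genes. The change of 0.03 ± 0.24 turned to -0.19 without R837 replicate 3.

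The remaining members of this arm did not pass. Dnajb9 (ERdj4), a cochaperone of BiP that restrains IRE1, had 2336, 2632 and 2603 with R837 against 2079, 2104 and 1812 with taurine. The groups did not overlap, and the log2 change was -0.34 ± 0.10 (limma adjusted p = 0.0711). It passed after the length and GC trends described below were removed (-0.32, adjusted p = 0.0443). Dnajc3 (p58IPK), a cochaperone that also inhibits PERK, had 8009, 7832 and 6593 against 6254, 6128 and 5842, with a change of -0.30 ± 0.09 (limma adjusted p = 0.0814) and no overlap. Dnajb11, another cochaperone of BiP, was above in every taurine library (7499 to 7845 against 6615 to 7345), with a change of 0.14. Edem1, which routes misfolded glycoproteins to degradation, averaged 34388 ± 2666 and 35534 ± 1638, with overlapping groups. The Derlins, membrane proteins of the degradation channel, differed in level. Derl1 averaged 7085 and 7500.1, Derl2 2677 and 2392 with no overlap, and Derl3 56.6 ± 31.3 and 69.9 ± 17.6. Their changes of 0.08, -0.16 and 0.40 did not pass, and that of Derl3 ran from 0.16 without R837 replicate 1 to 0.81 without R837 replicate 3.

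**Figure D2:**
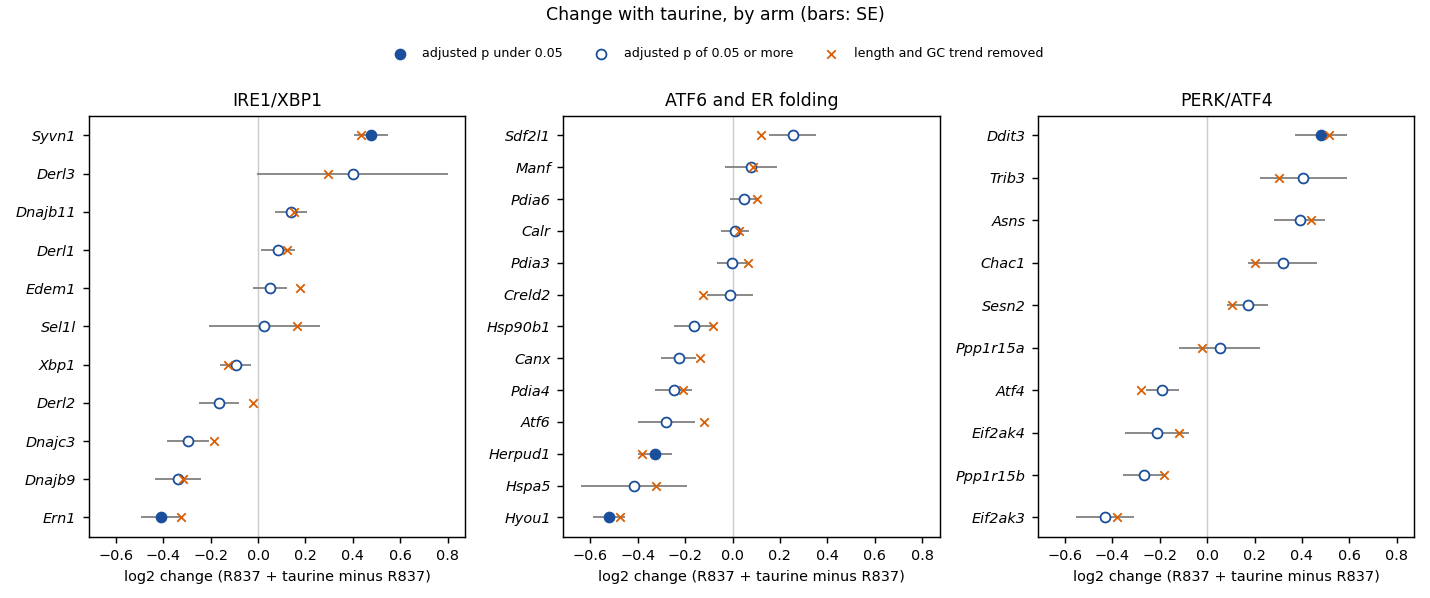
Log2 change (R837 plus taurine minus R837) of each gene with its standard error as a bar, by arm. Filled circles passed an adjusted p of 0.05 in limma, open circles did not, and crosses give the change with length and GC trends removed. Filled circles stand at -0.41 and 0.48 in the IRE1/XBP1 arm, at -0.52 and -0.33 in the ATF6 arm and at 0.48 in the PERK/ATF4 arm.

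In the ATF6 arm and folding machinery, 0 of 13 genes were higher and 2 lower, where 3.75% and 2.66% of all genes tested were. The median log2 change of the arm was -0.16. Hyou1 (ENSMUSG00000032115.14, mm10 chromosome 9, 44379490 to 44392369, plus strand) encodes GRP170, a large chaperone that exchanges nucleotide on BiP. It had 12696, 12489.8 and 11788 with R837 and 8591, 9041 and 8167 with taurine. The lowest R837 library was well above the highest taurine library, with means of 12325 ± 476 and 8599.5 ± 437 (SD, n = 3 each). The log2 change was -0.52 ± 0.07 (SE, limma adjusted p = 0.00679), the largest fall of the 34 genes. It was also the only member whose call was kept in all 6 fits with a library left out, where the change ran from -0.56 to -0.48. In limma without a trend of variance on abundance the call was lost, and 0 of the 34 genes passed. Herpud1 (ENSMUSG00000031770.16, mm10 chromosome 8, 94386438 to 94395377, plus strand) encodes a membrane protein that supports the HRD1 ligase. Its values were 16647, 17188 and 15190.0 with R837 and 12243, 13457 and 13400.1 with taurine. The groups did not overlap, the means were 16342 ± 1033 and 13033 ± 685, and the log2 change was -0.33 ± 0.07 (SE, limma adjusted p = 0.0351). Only the fit without R837 replicate 3 kept the call among the 6, and with the replicate number as a block the adjusted p was 0.0644. With left-out libraries set aside, the call of Herpud1 was lost in 3 of 11 alternative settings, the block among them.

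BiP itself rested on a single library. Hspa5 had 41010.4, 66939.7 and 31147 with R837 and 33811, 32754 and 32377 with taurine. R837 replicate 2 stood far above the other 5 libraries, while R837 replicate 3 was the lowest of all 6, so the groups overlapped. The log2 change was -0.42 ± 0.22 (limma adjusted p = 0.30). It was -0.12 without R837 replicate 2 and -0.67 (adjusted p = 0.0494) without R837 replicate 3. The SD was 18487 with R837 and 743 with taurine. Hsp90b1 shared the high value in R837 replicate 2 (43852, 48985 and 41319 against 44179.8, 38056 and 37748), with a change of -0.16 ± 0.08 and overlapping groups. Without R837 replicate 2 it was -0.09, and under quantile normalization -0.26. Atf6, the sensor, had 15864, 16412 and 11855 against 12336, 12491 and 11202, and R837 replicate 3 lay among the taurine values. Its change of -0.28 ± 0.12 (limma adjusted p = 0.20) was -0.43 (adjusted p = 0.0127) without that library.

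Of the lectin chaperones and disulfide isomerases, none passed. Canx (calnexin) had 18733, 18587 and 19179.6 with R837 and 16230.2, 17524 and 14622 with taurine, with no overlap and a change of -0.23 ± 0.07 (limma adjusted p = 0.105). Pdia4 had 11733, 11849 and 10116 against 9053, 9723 and 9521, also with no overlap, and a change of -0.25 ± 0.08 (limma adjusted p = 0.0961). Calr averaged 59457 ± 1728 and 59944 ± 3247, Pdia3 38425 ± 1454 and 38435 ± 2468, and Pdia6 15963 ± 363 and 16521 ± 551. The groups overlapped for all 3, and for Calr and Pdia3 the means differed by less than the SD of either group. The small secreted or luminal factors overlapped between groups as well. Sdf2l1, a partner of the BiP cycle, had a change of 0.25 ± 0.10, Manf, a secreted stress factor, 0.08 ± 0.11, and Creld2, another secreted product of the response, -0.01 ± 0.10. Exons of Manf overlap Vprbp, Rbm15b and a clone-named gene, and with their reads added its change was -0.04.

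In the PERK/ATF4 arm 1 of the 10 genes was higher (Ddit3) and 0 were lower, where 3.75% and 2.66% of all genes tested were. The median log2 change of the arm was 0.11. Groups did not overlap for 8 of the 10 genes, with 5 higher and 3 lower. Over all genes tested this share was 29.6%, with 14.6% higher and 15.0% lower. The order below, from kinases and Atf4 to target genes, was set after the values were seen and carries no test. Eif2ak3 (PERK) had 2386, 2499 and 1935 with R837 and 1554, 1864 and 1627 with taurine. The groups did not overlap, and the change was -0.43 ± 0.12 (limma adjusted p = 0.0701), or -0.54 (adjusted p = 0.0221) without R837 replicate 3. Eif2ak4 (GCN2) had 480.2, 497 and 409 against 416, 403 and 375, with a change of -0.21 ± 0.13 (limma adjusted p = 0.379) and overlapping groups. Atf4 (ENSMUSG00000042406.7, mm10 chromosome 15, 80255184 to 80257540, plus strand) had 17967, 17518 and 15819 against 14853, 14448 and 15641. Every taurine library was below every R837 library by this measure, though R837 replicate 3 and taurine replicate 3 were close. The change was -0.19 ± 0.07 (limma adjusted p = 0.140), and it was -0.24 (adjusted p = 0.0438) without R837 replicate 3.

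Ddit3 (ENSMUSG00000025408.15, mm10 chromosome 10, 127290774 to 127296288, plus strand) encodes CHOP, a transcription factor of prolonged stress. It had 659, 658 and 775 with R837 and 939.9, 975 and 995 with taurine. All taurine libraries were above all R837 libraries, with means of 697 ± 67.0 and 969.8 ± 27.7 (SD, n = 3 each). The log2 change was 0.48 ± 0.11 (SE, limma adjusted p = 0.0410). The fit without R837 replicate 3 was the only one of the 6 to keep the call, and with the replicate number as a block the adjusted p was 0.0674. With left-out libraries set aside, the call was lost in 4 of 10 alternative settings, the block among them. Its exons overlap Mars and Gm4189, which together averaged 2465 and 2665, and with their reads added the change was 0.20. These neighbours had more reads than Ddit3, so the sum leans toward their change whatever Ddit3 did. The strand setting of the counting is not given in the sources used here, and the extent of the shared exons was not measured. How many reads of the neighbours enter the value of Ddit3 was therefore not tested, and its rise is uncertain.

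Asns, Trib3, Chac1 and Sesn2, which ATF4 is known to drive, were each above every R837 library in every taurine library, and none passed. Of all genes tested, 14.6% were separated in this direction. Asns, asparagine synthetase, had 614, 622 and 687 with R837 and 792, 859.5 and 869 with taurine, a change of 0.39 ± 0.11 (limma adjusted p = 0.0687). Trib3, a pseudokinase that feeds back on ATF4, had 308, 214 and 277 against 309, 402 and 342, a change of 0.41 ± 0.18 (limma adjusted p = 0.223). Its highest R837 library and lowest taurine library were nearly equal, and the change was 0.26 without R837 replicate 2. Chac1, which degrades glutathione, had 434, 383 and 422 against 445, 513 and 597, a change of 0.32 ± 0.15 (limma adjusted p = 0.225), or 0.21 without taurine replicate 3. Sesn2, a stress-inducible inhibitor of mTORC1, had 1921, 1845 and 1717 against 2123, 1963 and 2085, a change of 0.17 ± 0.09 (limma adjusted p = 0.273). The phosphatase subunits that remove the phosphate from eIF2alpha differed from each other. Ppp1r15a (GADD34, the inducible subunit) had 3841, 3995 and 4485 against 3119.6, 4953 and 4975, where taurine replicate 1 was the lowest library of this further ATF4 target and the other taurine libraries were the highest. Ppp1r15b (CReP, the constitutive subunit) had 7544, 6853 and 6144 against 5835, 5779.8 and 5387, with no overlap and a change of -0.27 ± 0.09 (limma adjusted p = 0.106).

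**Figure D3:**
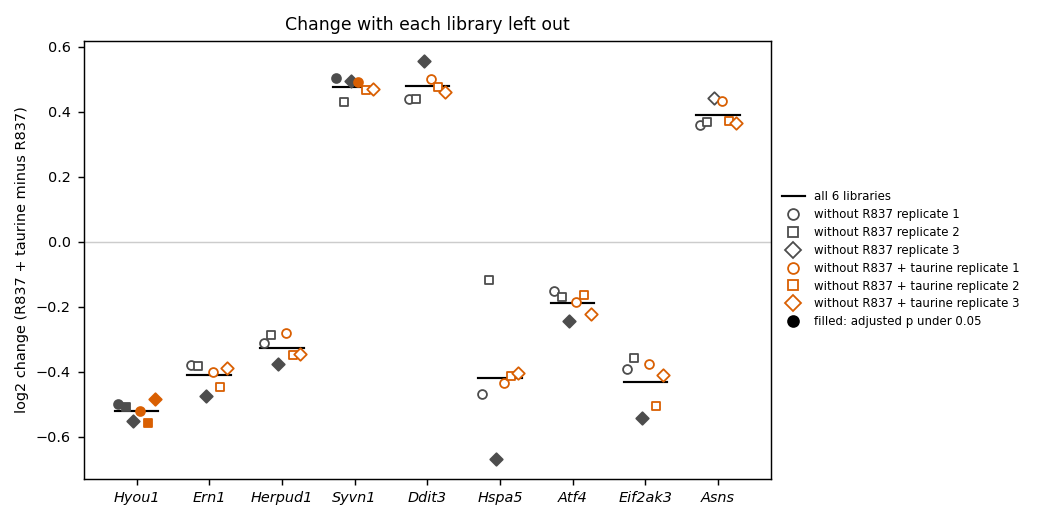
Log2 change of the 5 genes past the threshold and of Hspa5, Atf4, Eif2ak3 and Asns, which were chosen for this plot after their values were seen, with all 6 libraries (black line) and with each library left out (points). Grey points leave out an R837 library, orange points a taurine library, and filled points passed an adjusted p of 0.05. Hyou1 is filled in all 6 fits, and Hspa5 runs from -0.67 to -0.12.

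Exon length moved with the change. Across genes, the Spearman correlation between exon length and the deviation of a library from the mean ran from 0.0443 to 0.147 in the R837 libraries and from -0.203 to -0.100 in the taurine libraries. The same correlation with GC content ran from -0.159 to -0.0550 with R837 and from -0.0441 to 0.234 with taurine, highest in taurine replicate 3. Genes are not independent replicates in these values. The division at 4 kilobases was set after the values were seen. Of the 14 members with at least 4 kilobases of exon, 11 had a change below 0, against 61.0% of all such genes tested. Of the 20 shorter members 7 did, against 43.1% of all shorter genes. After a smooth trend on both exon length and GC content was taken out of every library, the numbers were again 11 of 14 and 7 of 20, where all genes then stood at 51.0% and 46.0%. The 5 genes past the threshold all passed after this removal, with -0.48 for Hyou1, -0.32 for Ern1, -0.38 for Herpud1, 0.43 for Syvn1 and 0.52 for Ddit3, and Dnajb9 passed in addition. The values of Atf6 (-0.28 to -0.12), Derl2 (-0.16 to -0.02) and Sdf2l1 (0.25 to 0.12) came closer to 0, as did those of Dnajc3 (-0.30 to -0.19), Canx (-0.23 to -0.14), Hsp90b1 (-0.16 to -0.08) and Eif2ak4 (-0.21 to -0.12). Among ATF4 targets the same held for Trib3 (0.41 to 0.30), Chac1 (0.32 to 0.20) and Sesn2 (0.17 to 0.10). Values of Edem1 (0.05 to 0.18), Asns (0.39 to 0.44) and Atf4 (-0.19 to -0.28) moved away from 0. These lists are not complete. Further members came closer to 0, such as Hspa5 (-0.42 to -0.32), or moved away from it, such as Sel1l (0.03 to 0.17).

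**Figure D4:**
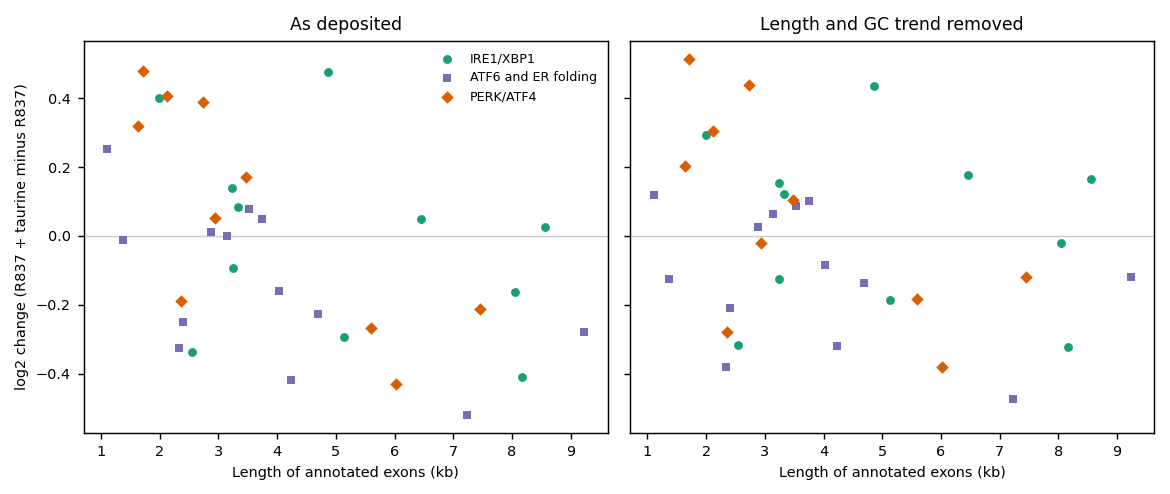
Log2 change of the 34 genes (vertical axis) against the summed length of their annotated exons in kilobases (horizontal axis), before (left) and after (right) removal of the length and GC trends. Colours and shapes give the arm. Before removal 11 of the 14 genes of at least 4 kilobases lie below 0, and the same numbers hold after it.

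Other genes of the pathway were read from a list of 106 genes, of which 103 were tested. Of these, 6 were higher and 2 lower in limma, with a median log2 change of -0.03. Among all genes tested 6.41% passed, 3.75% as higher and 2.66% as lower, which also stands beside the group counts below. In the translocon and glycosylation group (25 genes) and the degradation group (17 genes) 0 were higher and 0 lower by limma's adjusted p. Their medians were -0.10 and -0.07. The gene Sec61a1, the channel subunit through which proteins enter, averaged 11444 ± 872 and 10861 ± 225 with overlapping groups. Among 15 tested folding and oxidation genes 1 was higher and 1 lower. Uggt1, the glucosyltransferase that returns misfolded glycoproteins to calnexin, fell from 7538 ± 1356 to 5015 ± 54.5 (log2 change -0.57 ± 0.12, limma adjusted p = 0.0318). Ppib, cyclophilin B, rose from 6676 ± 18.7 to 8059.5 ± 396 (log2 change 0.27 ± 0.07, limma adjusted p = 0.0476), with exons that overlap Snx22. With left-out libraries set aside, the call of Ppib was lost in 5 of 10 alternative settings. Quantile normalization was 1 of them (0.25, limma adjusted p = 0.0535). P4hb, the main disulfide isomerase, had 15684, 15718 and 13706 with R837 and 12609.8, 12098 and 12445 with taurine, with no overlap and a change of -0.28 ± 0.07 (limma adjusted p = 0.0564). It passed with the length and GC trends removed (-0.33, limma adjusted p = 0.0382).

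Among 14 regulators of the response 3 were higher and 0 lower, where 3.75% and 2.66% of all genes tested were. Bak1, a pore-forming BCL2 family member that also binds IRE1, rose from 3068 ± 168 to 4265 ± 99.4 (log2 change 0.48 ± 0.08, limma adjusted p = 0.0129), and its change was also 0.48 with reads of the overlapping Ggnbp1 added. Wfs1, a membrane protein that restrains ATF6, rose from 1455 ± 34.5 to 1991 ± 7.20 (log2 change 0.45 ± 0.08, limma adjusted p = 0.0179). Tmbim6, known as BAX inhibitor 1, rose from 24754 ± 1082 to 29976 ± 1003 (log2 change 0.28 ± 0.06, limma adjusted p = 0.0319). Its call was lost in 4 of 11 alternative settings, left-out libraries set aside, quantile normalization among them (0.18, limma adjusted p = 0.0756). Bak1, Wfs1 and Tmbim6 were each higher in every taurine library than in any R837 library, as were 14.6% of all genes tested. Among 10 eIF2alpha kinases and ATF4 partners 1 was higher and 0 lower. Atf3, a factor induced by ATF4 and also by Toll-like receptors, had 3591, 2653 and 3125 with R837 and 4944, 4536 and 5013 with taurine. Its rise of 0.64 ± 0.11 (limma adjusted p = 0.0173) was the largest among the 8. Eif2ak2, the RNA-activated kinase PKR that interferon induces, had 9403, 10060.2 and 9812 against 11598, 10107 and 9503, with a change of 0.09 ± 0.08 (limma adjusted p = 0.573).

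Of 22 tested ATF4 target genes outside the 34, 1 was higher and 1 lower, where 3.75% and 2.66% of all genes tested were. Their median log2 change was 0.12, and 14 had a change above 0 and 8 below it. Mthfd2, a mitochondrial folate enzyme, rose from 8007 ± 266 to 10065 ± 553 (log2 change 0.33 ± 0.07, limma adjusted p = 0.0287). Slc38a2, the amino acid transporter SNAT2, fell from 20955 ± 532 to 15628 ± 629.6 (log2 change -0.42 ± 0.06, limma adjusted p = 0.00905), with 14941 to 16178 in the taurine libraries against 20357 to 21377. With the length and GC trends removed its change was -0.26, still past the threshold. Slc7a11, the cystine transporter, had 511, 776 and 802 against 925, 990.0 and 755, with overlapping groups and a change of 0.37 ± 0.19 (limma adjusted p = 0.273). It was 0.16 without R837 replicate 1 and 0.53 with the length and GC trends removed. With a library left out, Slc38a2 kept its call in 5 of 6 fits, Bak1 in 4, Atf3 in 3, and Uggt1, Ppib, Wfs1, Tmbim6 and Mthfd2 in 1 each. Over the whole list, limma called 3, 0 and 12 genes when R837 replicate 1, 2 or 3 was dropped, and 23 had an unadjusted p under 0.05 in the fit that called 0. Dropping taurine replicate 1, 2 or 3 left 2, 3 and 1 genes.

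**Figure D5:**
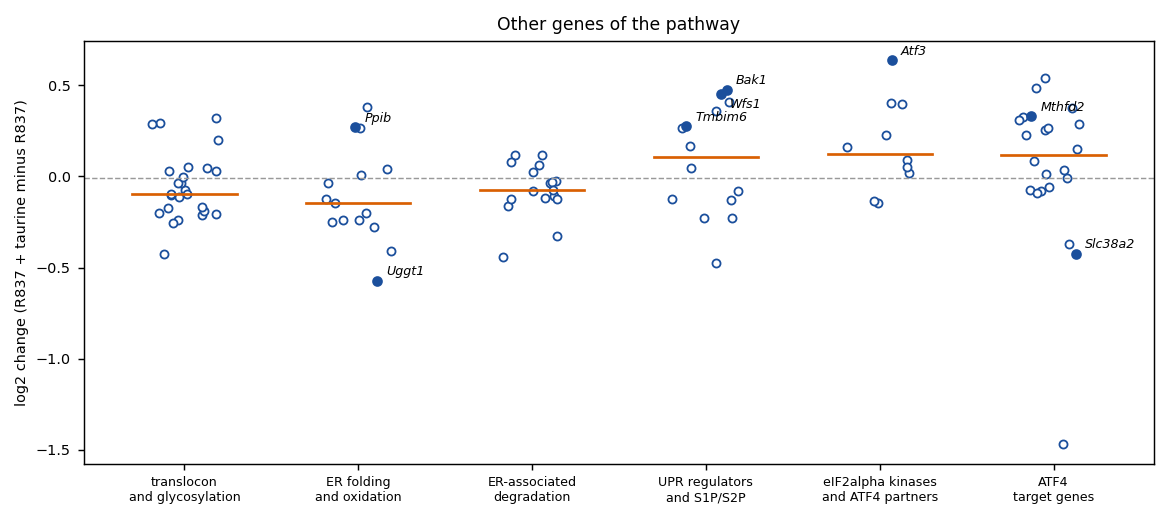
Log2 change of the 103 tested genes of the wider pathway by group, with filled points for an adjusted p under 0.05 in limma and orange bars for each group's median. The dashed line is the median of all genes tested. The filled points are Atf3, Bak1, Wfs1, Mthfd2, Tmbim6 and Ppib above 0 and Slc38a2 and Uggt1 below it.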

How the data were processed

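The authors deposited a signal value per gene, named a normalized count in the headers. In each library 1 step divided 100% of values into whole reads (tolerance 0.001 reads), which were recovered with it. The submitters' processing notes list HISAT2, StringTie, mm8 and mm10 without saying what each was for. No source used here gives the counting tool or strand setting. Of 52403 gene identifiers shared with GENCODE M21 (mm10), 95.2% had the same coordinates. Symbols turned into day numbers (27 genes) were restored by identifier.

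Tests used log2(normalized count + 1) of genes with at least 10 in at least 3 of 6 libraries, in limma 3.58.1 (R 4.3.3) with an abundance trend, as two-sided tests adjusted after Benjamini and Hochberg over 15265 genes. Changes are R837 plus taurine minus R837. The pseudocount understates changes of low genes. On recovered reads, edgeR 4.0.16 called 950 genes and DESeq2 1.42.0 called 1842. The scripts were tested on simulated data. Exon length, exon overlap and GC content came from GENCODE M21. Named genes are all 34 members, list members past the threshold and 5 fixed genes. Members and lists were chosen with earlier results of these data known. Alternatives covered pseudocount, filters, normalization, length and GC, overlap, pairing and left-out libraries. Sums with overlapping genes were added after values were seen. Sequences are from RefSeq.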

Additional observations from a re-analysis of the deposited data

How the results depend on the processing

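The limma fit called 979 genes, 5 of the 34 members and 8 of the 103 other pathway genes. Without a filter on low values these were 547, 3 and 4, and without the abundance trend 4, 0 and 0 (3217, 9 and 24 at an unadjusted p under 0.05). DESeq2 gave 1842, 11 and 18, and edgeR 950, 5 and 8. With a floor of a mean of 50 the other pathway genes gave 14, and among genes with no exon overlap 3 of 22 members were called. The replicate numbers did not pair the libraries (correlation of same-numbered deviations -0.0434 to -0.00264), and the fit with the replicate block called 615, 3 and 5. With 1 library left out the counts ran from 130 to 1503, 1 to 12 and 0 to 12, where the fit without R837 replicate 3 gave the highest of each. Scaling by totals without the 50 most abundant genes turned 573 higher and 406 lower genes into 462 and 585, with Ddit3 no longer past the threshold, and removal of the length and GC trends gave 663 higher and 303 lower. No called member changed sign. Among members near 0, Edem1, Sel1l and Pdia6 turned to -0.0561, -0.0260 and -0.0272 under quantile normalization, and Sel1l and Calr to -0.00687 and -0.0231 with totals without the 50 most abundant genes. Pdia3 turned to 0.00823 in edgeR, 0.000381 in DESeq2 and 0.0644 without the length and GC trends, where Ppp1r15a turned to -0.0222, and Manf to -0.0424 with overlapping genes added. With 1 library left out Edem1 ran from -0.0168 to 0.0855, Sel1l from -0.187 to 0.255, Calr from -0.0311 to 0.0455, Pdia3 from -0.0526 to 0.0338, Manf from -0.00820 to 0.184, Creld2 from -0.0959 to 0.0538 and Ppp1r15a from -0.0601 to 0.276. The cause of these shifts was not tested. Derl3, with under 100 normalized counts, was the least precise member.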
